A study of Mus musculus with 12 samples.

Results

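Collagen genes were followed in full-thickness distal colon of 12 mice. Members were all genes whose symbol is Col, a number, a and a number, which gave 44 genes and 221 transcripts among the 35241 gene symbols of the deposited table. By the structure of their proteins, 11 were assigned to fibrillar collagens, 6 to the type IV collagens of basement membranes, 6 to the type VI collagens of beaded filaments, 9 to fibril-associated collagens, 2 to multiplexins, 5 to transmembrane or anchoring collagens, and 5 to short-chain and other collagens. A mean of at least 0.5 normalized TPM, the limit for testing, was reached by 30 of the 44 genes and by 15880 genes of the table in all.

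Collagens are secreted proteins in which 3 chains wind into a triple helix, and glycine recurs at a fixed spacing along each helical chain. Fibrillar collagens assemble into the fibers that give the submucosa of the colon its strength, type IV collagens form the sheet under the epithelium and around vessels and muscle cells, and type VI collagens form fine filaments around cells. Fibroblasts and smooth muscle cells are known as main sources of fibrillar collagen in the gut wall, and endothelial and epithelial cells contribute type IV chains.

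All 12 mice carried homozygous floxed Spry2 alleles. In the 6 Spry2IEKO mice (Vil1::Cre;Spry2-f/f), Cre under the villin promoter, which is active in intestinal epithelial cells, removes Sprouty2 from the epithelium, and the 6 Spry2FF mice (Spry2-f/f) were littermates without Cre. Each of 2 litters, A and B, held 3 mice of each genotype and 2 males. Males numbered 3 among the Spry2FF mice and 1 among the Spry2IEKO mice. The labels give 6 weeks in one protocol and 8 weeks in another as the age of the mice. Nothing beyond the litter is labelled for the day of dissection or of library preparation, so litter cannot be told apart from these. The sample names carry a prefix that is shared within each litter and differs between litters, and its meaning is not labelled. Each library came from the whole wall of 1 colon, so fewer cells of a type and less RNA per cell cannot be told apart.

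Values are transcript abundances (TPM, corrected for transcript length) whose totals differ between mice, as after a second scaling. They were summed per gene and are called normalized TPM. The totals of the 12 mice lay between 918257 and 1068555. They do not count reads, so the depth behind each value is unknown and no counting interval is given. The targeted gene was lower in the mice with Cre. Spry2 averaged 27.7 ± 3.29 (SD, n = 6) without Cre and 20.04 ± 1.59 (SD, n = 6) with Cre, and no value of a Spry2IEKO mouse reached the lowest of the controls (exact permutation test, two-sided, p = 0.00216, which is the smallest that these groups allow). Over all genes its log2 change of -0.45 had an adjusted p of 0.16 by limma. Markers of the epithelium and of smooth muscle were high in every mouse, at summed levels of at least 3352 and 3226 normalized TPM. Transcripts of fat cells stood out in Spry2IEKO replicates 4 and 5 of litter A, at 298.0 and 517.3 normalized TPM for the sum of 6 markers against at most 61.2 in the other mice.

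A sequence feature common in fibrillar collagen genes is shown first because these genes carried most of the collagen RNA. An exon of 54 bases encodes 18 residues, or 6 glycine-led triplets. For each gene the first exon of this length with a glycine codon (GGN) leading each triplet is printed 5′ to 3′ on the coding strand of GRCm38, with the GG of each glycine codon in capitals. The exons lie at chr11:94939904-94939957 (Col1a1), chr6:4515481-4515534 (Col1a2), chr1:45325360-45325413 (Col3a1), chr1:45434892-45434945 (Col5a2, minus strand) and chr8:11245211-11245264 (Col4a1, minus strand).
Col1a1: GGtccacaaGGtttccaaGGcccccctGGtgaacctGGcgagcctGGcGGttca
Col1a2: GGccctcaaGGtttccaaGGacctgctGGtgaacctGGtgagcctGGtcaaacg
Col3a1: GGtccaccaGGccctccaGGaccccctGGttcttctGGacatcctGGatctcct
Col5a2: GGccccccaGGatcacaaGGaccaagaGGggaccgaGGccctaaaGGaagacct
Col4a1: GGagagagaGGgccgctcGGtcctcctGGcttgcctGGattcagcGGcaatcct
In the annotation (GENCODE M21), 24 of the 49 internal coding exons of Col3a1 (49.0%) and 24 of the 50 of Col1a2 (48.0%) had exactly 54 bases. Col4a1 had 2 such exons among 50 (a share of 4%) and Col4a2 1 among 45 (2.22%). Over all genes with coding transcripts the share was 0.734%.

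Col4a1 (chromosome 8, 11198423 to 11312826, minus strand) and Col4a2 (chromosome 8, 11312805 to 11449287, plus strand), which encode the chains of the most widespread basement membrane collagen, lie head to head, and their annotated first exons share 22 bases. The shared stretch (chr8:11312805-11312826, plus strand) is shown because both genes were lower in the same litter.
Col4a1 and Col4a2: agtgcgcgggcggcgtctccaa
Col4a3 and Col4a4 (a gap of 71 bases) and Col4a5 and Col4a6 (1308 bases) are arranged in the same way, whereas Col3a1 and Col5a2 lie 24614 bases apart and Col6a2 and Col6a1 85161 bases apart.

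The promoters of Col3a1 and Col1a2, the collagen genes with the highest mean levels, shared none of 3 short motifs. The 250 bases before the RefSeq start are printed for both (GRCm38.p6). Capitals mark a TATA box, searched as TATAAA on both strands. They also mark the second motif, which was searched in the same way as CCAAT. The last motif was a GC box, and the letters that were searched for it on both strands were GGGCGG. The windows are chr1:45311288-45311537 for Col3a1 and chr6:4505368-4505617 for Col1a2, both on the plus strand.
Col3a1: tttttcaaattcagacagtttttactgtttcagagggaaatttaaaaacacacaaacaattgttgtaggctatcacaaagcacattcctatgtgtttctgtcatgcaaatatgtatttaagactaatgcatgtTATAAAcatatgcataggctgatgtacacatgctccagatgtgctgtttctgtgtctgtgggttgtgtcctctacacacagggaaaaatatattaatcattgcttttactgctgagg
Col1a2: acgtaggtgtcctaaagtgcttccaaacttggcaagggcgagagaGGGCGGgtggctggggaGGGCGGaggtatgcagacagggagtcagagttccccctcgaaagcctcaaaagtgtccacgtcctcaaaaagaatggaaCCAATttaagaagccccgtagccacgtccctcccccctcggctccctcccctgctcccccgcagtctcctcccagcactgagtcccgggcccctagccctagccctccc
Col3a1 had 1 TATA match and neither of the others, and Col1a2 had 2 GC matches and 1 CCAAT match. Among the 38 windows of the 35 members found in the RefSeq table, 57.9% held a GC box, 34.2% a CCAAT box and 13.2% a TATA box. The shares over all 32851 windows were 32.7%, 33.8% and 12.4%.

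Fibrillar collagens made up 55.2% of all collagen RNA on the scale of normalized TPM, type VI collagens 17.8% and type IV collagens 14.2%. Fibril-associated collagens made up 6.56%, multiplexins 3.82%, short-chain and other collagens 1.74%, and transmembrane or anchoring collagens 0.647%. The gene with the highest level was Col3a1 (type III, abundant in distensible tissues; chromosome 1, 45311538 to 45349706), with a mean of 189 normalized TPM. It was followed by Col1a2 (48.8), Col4a1 (43.7), Col6a1 (41.7), Col6a2 (26.9), Col1a1 (22.9), Col6a3 (22.4) and Col4a2 (21.5). Values from Col1a2 to Col6a1, and those from Col6a2 to Col4a2, were closer to each other than the spread between mice. Col1a2 alone ran from 26.97 to 77.4 and Col6a2 from 11.8 to 41.4. The order within each of these sets is not settled by these data.

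Below the limit were 14 genes, namely Col13a1, Col11a2, Col6a5, Col24a1, Col9a3, Col25a1, Col17a1, Col22a1, Col4a4, Col10a1, Col9a1, Col2a1, Col6a6 and Col19a1. Col2a1, the main collagen of cartilage, was listed above 0 in 2 of 12 mice and Col10a1, which marks hypertrophic cartilage, in 7. Col17a1, a transmembrane collagen of skin hemidesmosomes, had a mean of 0.137 normalized TPM, and Col7a1, which forms anchoring fibrils under stratified epithelia, one of 1.24.

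For several genes the summed level did not rest on the full-length transcript. Of the level of Col3a1, 52.1% came from its transcript of 5564 bases, 37.4% from a protein-coding transcript of 737 bases and 10.4% from a retained-intron transcript of 431 bases. In Col6a3, the large chain of type VI collagen, 58.0% came from a retained-intron transcript of 646 bases and 41.9% from protein-coding ones. In Col16a1, a fibril-associated collagen, protein-coding transcripts made up 17.3%. By contrast, the full-length transcripts of Col1a1 (99.9%), Col4a2 (99.5%) and Col1a2 (96.3%) accounted for nearly the whole level. Because TPM is divided by length, a few reads on a short transcript weigh as much as many on a long one, so levels of Col3a1, Col6a3, Col16a1, Col15a1 and Col12a1 relative to other genes depend on which transcripts are counted.

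**Figure D1:**
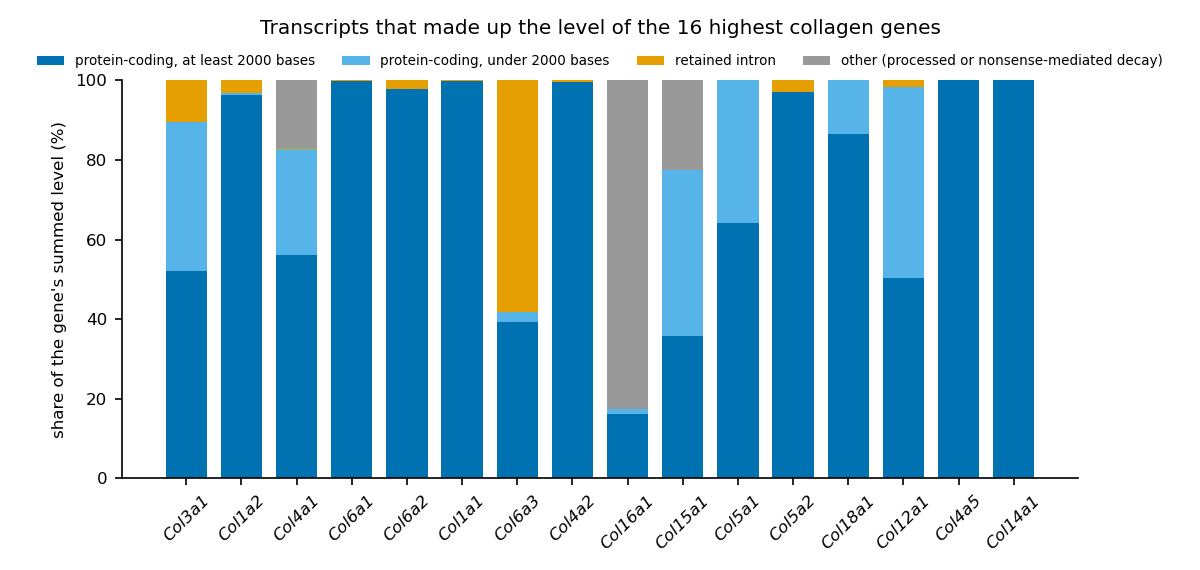
Share of each gene's summed level (%, y axis) taken by protein-coding transcripts of at least 2000 bases, shorter protein-coding transcripts, retained introns and other transcripts, for the 16 collagen genes with the highest mean (x axis, in falling order). Col1a1, Col6a1 and Col4a2 consisted almost wholly of long coding transcripts, whereas 58.1% of Col6a3 was retained intron and 82.5% of Col16a1 was processed or nonsense-mediated decay transcripts.

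The question of the design was whether deletion of Sprouty2 in the epithelium changed expression in the distal colon, and here it was asked for the collagens of the wall. No collagen gene passed an adjusted p of 0.05 between genotypes (limma, 0 of 30 tested), against 5 of 15880 genes in all (0.0315%). An unadjusted p under 0.05 was reached by 0 of the 30 collagens and by 6.18% of all genes tested. The log2 change of Spry2IEKO against Spry2FF was below 0 in 17 of 30 collagens (47.9% of all genes), with a median of -0.01 against 0.01 over all genes. No collagen among the 30 had all mice of one genotype above all mice of the other, as 0.403% of all genes tested did.

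Col3a1 lay between 97.7 and 284.0 normalized TPM in Spry2FF mice (median 174) and between 107.9 and 309.4 in Spry2IEKO mice (median 181). The groups overlapped almost fully, and the log2 change was 0.09 (standard error 0.29, limma adjusted p = 0.973). Col1a1 and Col1a2, the chains of type I collagen, had log2 changes of 0.01 (standard error 0.30) and 0.07 (standard error 0.25). These standard errors come from the fit without litter. With litter as a covariate 0 of 30 collagens passed as well (0.0378% of all genes), and 0 of 30 had an unadjusted p under 0.05 (8.2% of all genes).

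The 5 collagens with the smallest unadjusted p between genotypes included 2 type IV collagens, Col4a3 and Col4a2. Col20a1, a fibril-associated collagen, ran from 1.14 to 2.15 in Spry2FF mice (median 1.62) and from 0.872 to 1.86 in Spry2IEKO mice (median 1.17), a log2 change of -0.30 (standard error 0.18, limma adjusted p = 0.842). Col4a3, a chain of specialised basement membranes such as that of the kidney glomerulus, ran from 0.0998 to 1.07 in Spry2FF mice (median 0.754) and from 0.245 to 2.16 in Spry2IEKO mice (median 1.39), a log2 change of 0.55 (standard error 0.40, limma adjusted p = 0.863). Both pairs of groups overlapped. A transcript of 627 bases carried 80.4% of the level of Col4a3, and 563 of its exon bases are shared with C430014B12Rik on the opposite strand, so reads from the 2 genes may not be told apart. Col11a1, a fibrillar collagen of cartilage (log2 change -0.36), Col4a2 (-0.18) and Col15a1 (0.20) completed the 5, with adjusted p of at least 0.882. The log2 change of Col11a1, at 0.299 to 1.86 in Spry2FF mice and 0.208 to 0.752 in Spry2IEKO mice, was 0.10 within litter A and -0.81 within litter B. That of Col15a1 was -0.22 without both Spry2IEKO mice with the most fat transcripts.

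Col24a1, a fibrillar collagen under the limit for testing, is described because its groups did not overlap, and it was thus chosen after its values had been seen. It was 0.067 to 0.253 normalized TPM in Spry2FF mice and 0.460 to 0.665 in Spry2IEKO mice, so that each of the 6 Spry2IEKO mice exceeded each of the 6 Spry2FF mice. The exact permutation test, two-sided, gave the smallest possible p (0.00216). Any gene whose groups do not overlap gives this p here, so it adds no evidence beyond the choice of the gene. Without a limit on low values its log2 change was 0.58 (standard error 0.10, limma adjusted p = 0.133 over 24755 genes), and 0.145% of these genes had all Spry2IEKO mice above all Spry2FF mice. Its full coding transcript of 7143 bases did not show the separation, at 0.067 to 0.253 in Spry2FF mice and 0.059 to 0.280 in Spry2IEKO mice. The rest of the level came from a retained-intron transcript of 1777 bases and a processed transcript of 620 bases, at up to 0.054 and 0.028 in Spry2FF mice. In Spry2IEKO mice the retained-intron transcript was at most 0.036 in litter A and 0.262 to 0.401 in litter B. The processed transcript was 0.180 to 0.410 in litter A and at most 0.110 in litter B. Neither of these transcripts alone separated the genotypes.

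The litter separated the mice. Between litter B and litter A, 11 of 30 collagens passed an adjusted p of 0.05 (limma with genotype as a covariate), all lower in litter B, against 4.38% of all genes in either direction and 3.31% in this direction (1.08% were higher). They comprised 5 of 8 tested fibrillar collagens, 2 of 5 type IV collagens, 2 of 4 type VI collagens, 1 of 5 fibril-associated collagens and 1 of 2 multiplexins. None of the 6 tested genes of the remaining classes passed. The log2 change was below 0 in 25 of 30 collagens (58.8% of all genes), with a median of -0.46 against -0.05 over all genes, and 16 of 30 had an unadjusted p under 0.05 (21.9% of all genes). Of all genes called between litters, 75.4% were lower in litter B, and this share was 92.8% when the mice were scaled to the same total and 56.2% after quantile normalization, with 14 and 9 collagens called, all lower. In 9 of the 11 every mouse of litter A was above every mouse of litter B, as in 2.94% of all genes tested.

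Among the fibrillar collagens, Col3a1 ranged between 200.5 and 309.4 normalized TPM in litter A (median 243) and between 97.7 and 152.5 in litter B (median 138). All 6 mice of litter A exceeded all 6 of litter B, and the log2 change was -0.93 (standard error 0.13, limma adjusted p = 0.00944). Its long transcript alone showed the same separation, at 106.7 to 165.2 in litter A and 54.9 to 81.5 in litter B, and so did the transcript of 737 bases, at 64.6 to 125.9 and 34.9 to 61.7.

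Type I collagen, the main load-bearing fibril protein, showed a similar difference. Col1a1 (chromosome 11, 94936224 to 94953042) lay between 23.0 and 38.7 in litter A (median 28.7) and between 10.3 and 21.9 in litter B (median 16.4), with no overlap and a log2 change of -0.89 (standard error 0.18, limma adjusted p = 0.0225). Col1a2 (chromosome 6, 4504814 to 4541544) lay between 47.3 and 77.4 in litter A (median 62.0) and between 26.97 and 49.1 in litter B (median 34.5), a log2 change of -0.75 (standard error 0.14, limma adjusted p = 0.0197). One mouse of litter B, Spry2IEKO replicate 8, was above the lowest mouse of litter A for Col1a2.

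Type V collagen, which nucleates type I fibrils and limits their width, was lower in litter B in both of its more abundant chains. Col5a1 spanned 10.3 to 16.97 in litter A (median 14.6) and 5.67 to 10.01 in litter B (median 8.47), a log2 change of -0.76 (standard error 0.15, limma adjusted p = 0.0199). Col5a2 spanned 10.3 to 16.3 (median 14.1) and 6.69 to 10.2 (median 9.01), a log2 change of -0.58 (standard error 0.13, limma adjusted p = 0.031). For either gene the litters did not overlap. The third chain, Col5a3, at 1.72 to 2.85 and 0.882 to 2.29, had a log2 change of -0.40 that did not pass (adjusted p = 0.228).

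The fibrillar collagens that did not pass were the ones with low levels. Col27a1, known from cartilage, ran at 1.64 to 2.75 in litter A and 1.93 to 3.66 in litter B, a log2 change of 0.26 (adjusted p = 0.394 by limma), and -0.10 when protein-coding transcripts alone were counted. Col11a1 ran from 0.299 to 1.03 in litter A and from 0.208 to 1.86 in litter B.

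**Figure D2:**
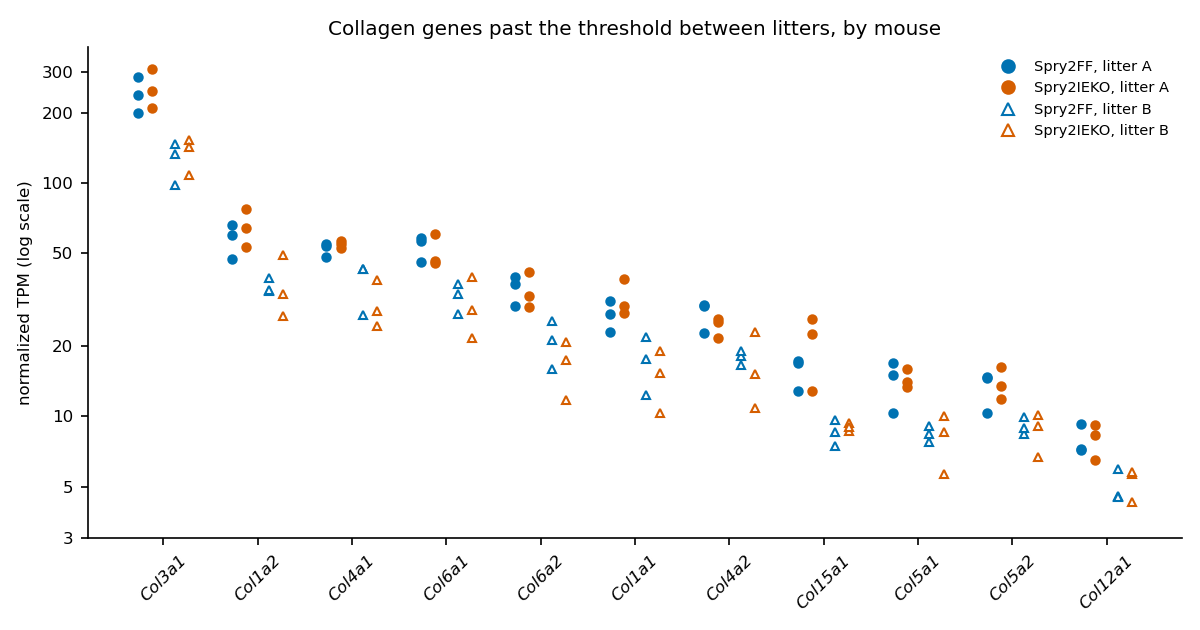
Normalized TPM (log scale, y axis) in each of the 12 mice for the 11 collagen genes past the threshold between litters (x axis, in falling order of mean), with circles for litter A, triangles for litter B, blue for Spry2FF and orange for Spry2IEKO. The litters did not overlap in 9 of the 11 genes, Col1a2 and Col4a2 being the exceptions.

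In the basement membrane class, the 2 ubiquitous chains differed between litters and the others did not pass. Col4a1 was 48.3 to 56.5 in litter A (median 54.2) and 24.4 to 42.8 in litter B (median 33.4), with no overlap and a log2 change of -0.68 (standard error 0.14, limma adjusted p = 0.0223). Col4a2 was 21.7 to 29.9 in litter A (median 25.8) and 10.9 to 23.0 in litter B (median 17.4), and Spry2IEKO replicate 8 of litter B overlapped with litter A. Its log2 change was -0.61 (standard error 0.15, limma adjusted p = 0.0421). This call was the least stable of the 11, passing in 1 of 12 fits with a mouse left out and in 7 of 14 other alternatives.

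Col4a5 and Col4a6 encode chains found in smooth muscle basement membranes. Col4a5 ran at 5.69 to 7.45 in litter A and 4.60 to 6.43 in litter B, a log2 change of -0.21 (adjusted p = 0.284 by limma). Col4a6 was 2.17 to 3.02 and 1.34 to 2.84, a log2 change of -0.17 (adjusted p = 0.579). Whether Col4a1 and Col4a2 differed more between litters than Col4a5 and Col4a6 was not tested.

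Of the type VI collagens, both chains encoded side by side on chromosome 10 were lower in litter B. Col6a1 (76708792 to 76726168) was 45.3 to 60.3 in litter A (median 51.5) and 21.6 to 39.4 in litter B (median 31.1), a log2 change of -0.75 (standard error 0.14, limma adjusted p = 0.0169). Col6a2 (76595762 to 76623630) was 29.5 to 41.4 in litter A (median 34.9) and 11.8 to 25.6 in litter B (median 19.1), a log2 change of -0.91 (standard error 0.16, limma adjusted p = 0.0148). In neither gene did the litters overlap. Col6a3, at 17.1 to 36.9 and 13.3 to 19.9, had a log2 change of -0.69 and missed the threshold (adjusted p = 0.0644). With protein-coding transcripts alone its log2 change was -0.79 (adjusted p = 0.0128), and its coding transcript of 9001 bases ran at 8.39 to 13.1 in litter A and 5.17 to 7.52 in litter B.

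Collagens that decorate fibrils or join them to basement membranes gave mixed results. Col12a1, a fibril-associated collagen of dense connective tissue, was 6.5 to 9.26 in litter A (median 7.80) and 4.31 to 5.92 in litter B (median 5.10), with no overlap and a log2 change of -0.59 (standard error 0.12, limma adjusted p = 0.0257). Col14a1, its close relative, had the lowest log2 change among the collagens, -1.17 (standard error 0.31), but varied more between mice, at 4.55 to 12.5 in litter A and 1.33 to 6.91 in litter B, and did not pass (adjusted p = 0.054). Col16a1 was 16.3 to 25.6 and 13.3 to 22.4, a log2 change of -0.22 (adjusted p = 0.416) that was 0.22 with protein-coding transcripts alone. Col20a1 had a log2 change of 0.15 (adjusted p = 0.658).

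The multiplexins sit between basement membranes and the underlying matrix and release antiangiogenic fragments. Col15a1 (chromosome 4, 47208161 to 47313167) was 12.8 to 26.2 in litter A (median 17.1) and 7.49 to 9.62 in litter B (median 8.83), a log2 change of -0.96 (standard error 0.16, limma adjusted p = 0.0125). Both Spry2IEKO mice with the most fat transcripts had the highest values, and without them the log2 change was -0.72 (adjusted p = 0.0759). Col18a1, the source of endostatin, ran at 5.93 to 9.81 in litter A and 2.36 to 6.74 in litter B, a log2 change of -0.79 that narrowly missed the threshold (adjusted p = 0.0522).

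None of the short-chain and other collagens passed. Col8a1, a network collagen of vessel walls, ran at 3.48 to 4.503 in litter A and 2.02 to 3.96 in litter B, a log2 change of -0.45 (adjusted p = 0.109 by limma). Its partner chain Col8a2 had a log2 change of -0.42 (adjusted p = 0.26). Col26a1, at 0.216 to 2.35 in litter A and 0.562 to 6.40 in litter B, had the highest log2 change, 0.89 (standard error 0.48, limma adjusted p = 0.308), and 82.2% of its level came from a retained-intron transcript of 578 bases. Col28a1 spanned 1.55 to 2.33 in litter A and 1.24 to 3.83 in litter B, a log2 change of -0.01 (adjusted p = 0.991). Of the transmembrane and anchoring collagens, Col23a1, at 1.12 to 2.04 and 0.537 to 2.10, had a log2 change of -0.43 (adjusted p = 0.327). Col7a1, at 0.517 to 2.16 and 0.879 to 1.46, had one of 0.12 (adjusted p = 0.822).

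**Figure D3:**
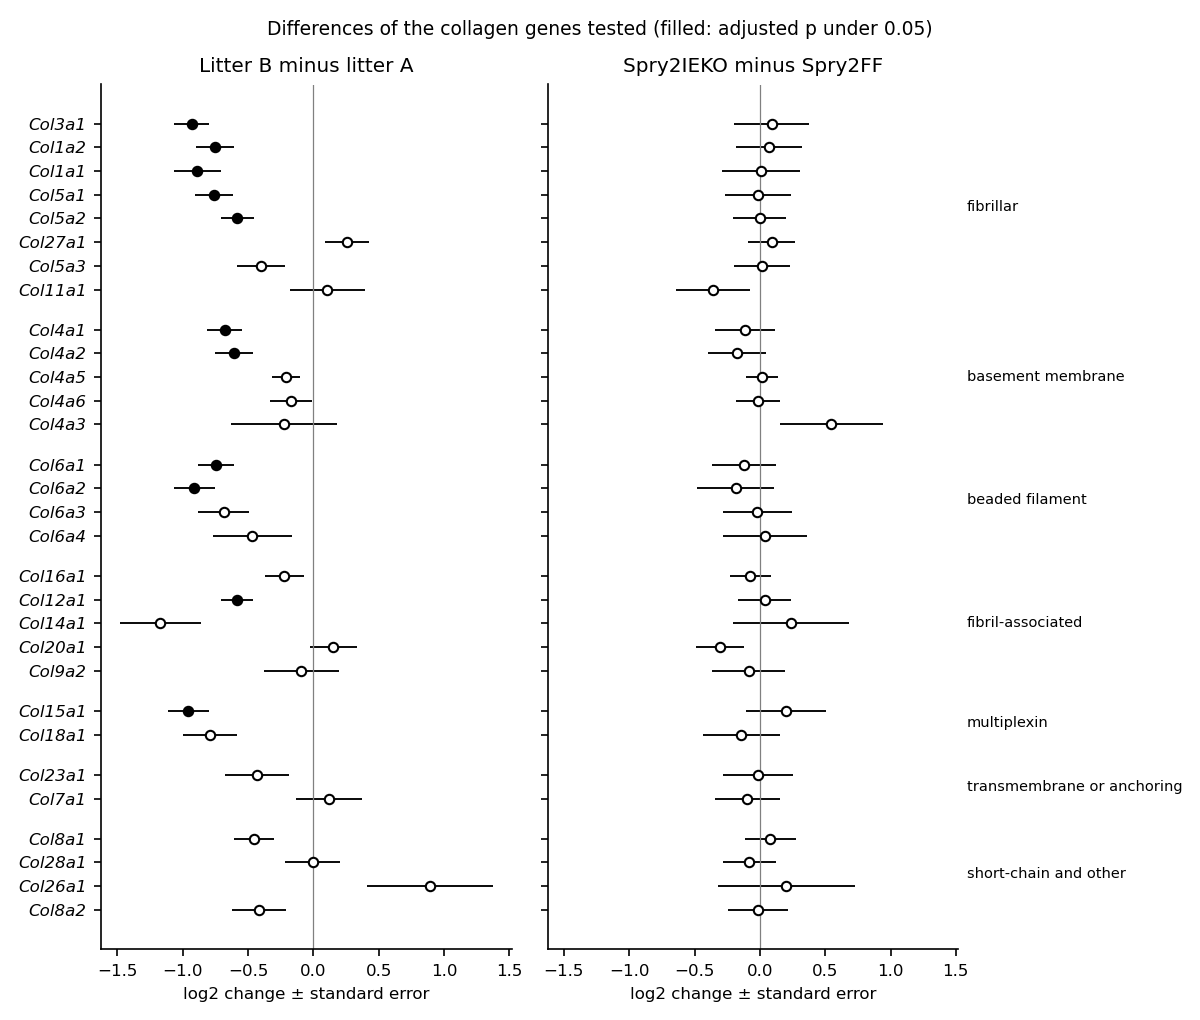
Log2 change with its standard error (x axis) of the 30 collagen genes tested (y axis, grouped by class), for litter B minus litter A on the left and for Spry2IEKO minus Spry2FF on the right, with filled points for an adjusted p under 0.05. All 11 filled points lie left of 0 in the comparison of litters, and no point is filled in the comparison of genotypes.

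The litter difference had the same direction in each genotype. Within Spry2FF mice alone the log2 changes of the 11 genes lay between -0.94 (Col3a1) and -0.50 (Col4a1), and within Spry2IEKO mice alone between -1.11 (Col1a1) and -0.57 (Col12a1). With 3 mice against 3, however, 0 of 30 collagens passed in either genotype, as did 2 and 1 of all 15880 genes. No collagen had a genotype difference that differed between litters (interaction in limma, 0 of 30 against 0.0126% of all genes), and 0 of 30 had an unadjusted p under 0.05 for it (4.19% of all genes).

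The calls, though not their direction, changed with the mice included, and each of these fits held fewer mice. Without both Spry2IEKO mice with the most fat transcripts, 0 of 30 collagens passed between litters, against 0.113% of all genes, and the median log2 change of the collagens was -0.41. With 1 mouse left out at a time, between 4 collagens (without Spry2IEKO replicate 5) and 14 (without Spry2IEKO replicate 8) passed. Counts of 7 and 5 were reached without Spry2FF replicates 3 and 9. Among females alone 0 passed, with a median of -0.54 over 8 mice.

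Sums over a class separated the litters too, without overlap for fibrillar, type IV and type VI collagens and multiplexins, and with overlap for fibril-associated collagens. The sum of all 44 collagens was 540.5 to 783.7 normalized TPM in litter A and 300.8 to 468.6 in litter B. Fibrillar collagens summed to 373 ± 59.8 (SD, n = 6) in litter A and 206 ± 33.6 (SD, n = 6) in litter B, type VI collagens to 118 ± 20.04 and 68.8 ± 12.95, and type IV collagens to 89.6 ± 5.58 and 59.8 ± 12.6. Spry2IEKO replicate 5 had the highest sum of all mice, and Spry2IEKO replicate 12 of litter B the lowest. By genotype the sum of all collagens was 519.6 ± 151 (SD, n = 6) in Spry2FF mice and 530.2 ± 181 (SD, n = 6) in Spry2IEKO mice.

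Ratios between chains of type I, IV, V and VI collagens were compared with the chains themselves. The ratio of Col4a1 to Col4a2 over protein-coding transcripts was 1.498 to 1.98 (median 1.64), with a coefficient of variation of 9.29% over the 12 mice against 29.1% and 26.6% for the genes. Col6a1 to Col6a2 was 1.40 to 1.94 (median 1.60), with a coefficient of variation of 11.2%, and Col5a1 to Col5a2 was 0.92 to 1.21 (median 1.01), with one of 8.403%. The ratio of Col4a5 to Col4a6 was no steadier than its chains, with a coefficient of variation of 19.4%, above that of Col4a5 (13.9%) and close to that of Col4a6 (19.99%). Type I collagen contains a pair of α1 chains for each α2 chain, and yet Col1a2 RNA was 1.58 to 2.66 times as high per length as Col1a1 RNA (median 2.10). Col3a1, of another type, was 2.83 to 4.29 times as high as Col1a2 (median 3.70). The coefficient of variation was 12.3% for this ratio and 13.9% for Col1a2 to Col1a1. Steady ratios were thus not particular to chains of 1 type. The ratios count short coding transcripts where a gene has them. Full-length transcripts alone averaged 98.7 normalized TPM for Col3a1 and 46.96 for Col1a2. They averaged 24.5 for Col4a1 and 21.4 for Col4a2, and 7.21 for Col5a1 and 10.9 for Col5a2. The 12 mice contribute to each ratio, and chains of 1 mouse share its library.

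**Figure D4:**
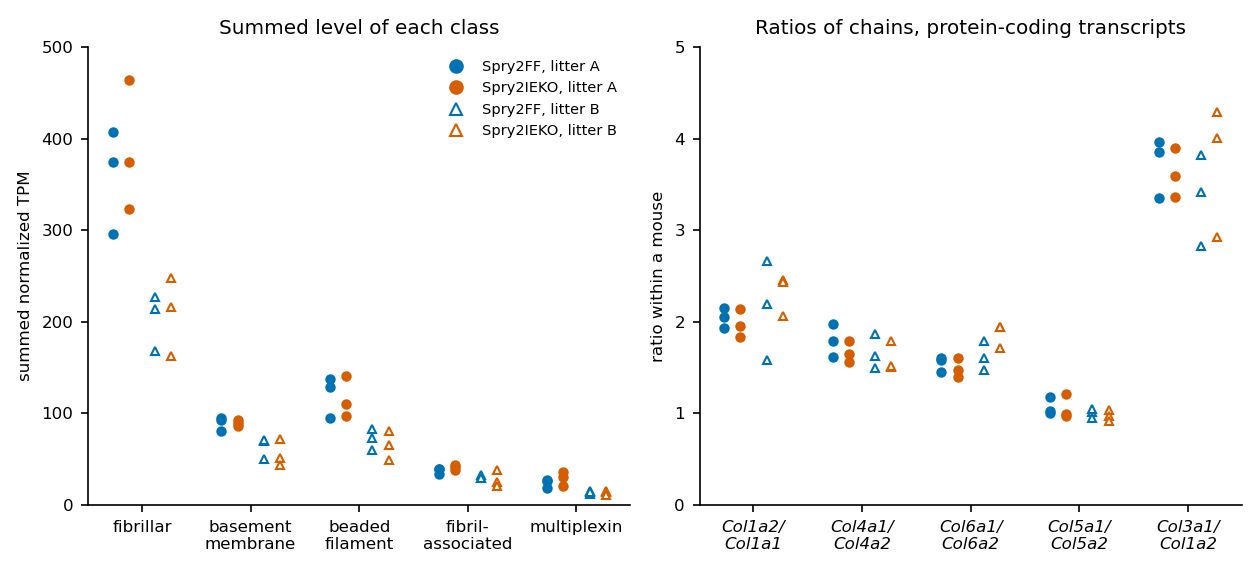
Left, summed normalized TPM (y axis) of 5 collagen classes (x axis) in each mouse. Right, ratio within each mouse (y axis) between pairs of collagen genes over protein-coding transcripts (x axis), with circles for litter A, triangles for litter B, blue for Spry2FF and orange for Spry2IEKO. Fibrillar sums lie at 295.9 or above in litter A and at 248.1 or below in litter B, whereas the ratios of the 2 litters overlap.

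Genes whose products fold, process, cross-link, organise, bind or degrade collagen were compared in the same fits. Of 93 such genes, 85 were tested. Between genotypes 0 passed an adjusted p of 0.05 (0.0315% of all genes), and 1 had an unadjusted p under 0.05 (6.18% of all genes). That gene was Itga2, the α2 subunit of a collagen-binding integrin (log2 change 0.38, adjusted p = 0.694 by limma). Between litters 14 of 85 passed, all lower in litter B (4.38% of all genes in either direction and 3.31% in this direction). The log2 change was below 0 in 77 of 85 (58.8% of all genes), with a median of -0.36 against -0.05 over all genes.

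In the endoplasmic reticulum, 2 of 21 genes for folding and modification passed between litters (4.38% of all genes). They were Fkbp10, a prolyl isomerase for procollagen (7.96 ± 0.622 in litter A and 5.51 ± 1.25 in litter B, SD, n = 6 each, log2 change -0.51, adjusted p = 0.0429 by limma), and Mia3, a cargo receptor for procollagen export (log2 change -0.38, adjusted p = 0.0478). P4hb, a subunit of prolyl 4-hydroxylase that also serves other proteins, had a log2 change of -0.16 (adjusted p = 0.0923). The highest level of the list was that of the isomerase gene Ppib, with a mean of 353 normalized TPM. Between genotypes the smallest unadjusted p in this list belonged to Fkbp14 (log2 change 0.26) and Plod3 (-0.20), at adjusted p of 0.833 and 0.842.

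Outside the cell, procollagen is trimmed and fibrils are cross-linked. None of the 4 tested genes for trimming passed, among them Adamts2, the procollagen N-proteinase (log2 change -0.53, adjusted p = 0.0989 by limma), the C-proteinase Bmp1 (-0.51, adjusted p = 0.257) and the enhancer of the latter, Pcolce (-0.38, adjusted p = 0.188). Of 7 cross-linking genes 1 passed (4.38% of all genes), Loxl2, a lysyl oxidase that acts on type IV collagen (11.7 ± 2.13 in litter A and 6.70 ± 0.797 in litter B, SD, n = 6 each, log2 change -0.75, adjusted p = 0.0123). Tgm2, a transglutaminase, narrowly missed the threshold (-0.54, adjusted p = 0.0507). Between genotypes Loxl3 had a log2 change of 0.25 (adjusted p = 0.862).

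Among proteins that organise fibrils, all 15 tested genes had a log2 change below 0 between litters (58.8% of all genes). Of these, 5 passed (3.31% of all genes passed in this direction). Thbs1, a matricellular thrombospondin, averaged 11.6 ± 1.27 in litter A and 7.52 ± 0.413 in litter B (SD, n = 6 each), a log2 change of -0.59 (adjusted p = 0.00952 by limma). The proteoglycan gene Prelp had a log2 change of -0.63 (adjusted p = 0.0152), and Postn, encoding periostin, one of -0.50 (adjusted p = 0.0321). The others were Sparc, a collagen-binding glycoprotein (-0.77, adjusted p = 0.0211), and Bgn, the small proteoglycan biglycan (-0.87, adjusted p = 0.0336). Dcn, encoding decorin, which coats type I fibrils, was 208 ± 39.2 and 138 ± 42.0, a log2 change of -0.63 that did not pass (adjusted p = 0.0808). Emilin1 had a log2 change of 0.32 between genotypes (adjusted p = 0.885).

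Partners of type IV collagen in basement membranes passed in 1 of 13 cases (4.38% of all genes). This was Lama2, a laminin chain of muscle (3.82 ± 0.6254 in litter A and 2.21 ± 0.64 in litter B, SD, n = 6 each, log2 change -0.69, adjusted p = 0.0425 by limma), whereas Lamb1, found in many basement membranes, just missed the threshold (-0.59, adjusted p = 0.0507). Lamb3, a laminin chain of epithelia and the highest of the list, had a log2 change of -0.19 (adjusted p = 0.343).

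Genes for degradation also had a log2 change below 0 in all 15 tested cases (58.8% of all genes). Of these, 5 passed as lower in litter B (3.31% of all genes). Mmp2, the gene of gelatinase A, ran at 29.8 ± 5.14 in litter A and 15.4 ± 1.72 in litter B (SD, n = 6 each), a log2 change of -0.92 (adjusted p = 0.00611 by limma). Ctsk, which encodes the collagenolytic cathepsin K, was 8.98 ± 0.889 and 4.53 ± 0.871, a log2 change of -0.93 (adjusted p = 0.00712). The remaining genes that passed were Timp2, an inhibitor of these proteases (-0.72, adjusted p = 0.033), the collagen uptake receptor gene Mrc2 (-0.66, adjusted p = 0.0461) and Mmp10, the gene of stromelysin 2 (-0.82, adjusted p = 0.0463). The membrane-bound protease gene Mmp15, among the highest of the list, had a log2 change of -0.30 (adjusted p = 0.117). Between genotypes the smallest p of the list was that of the same Mmp10 (0.65, adjusted p = 0.825). None of 10 collagen receptors passed between litters, with log2 changes of -0.23 for both Itgb1 (adjusted p = 0.122) and Ddr1 (adjusted p = 0.307) and of -0.53 for Itga11 (adjusted p = 0.0924). Ddr1, a receptor kinase for collagen, had a log2 change of -0.27 between genotypes (adjusted p = 0.826).

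Markers of cells that make or border collagen were measured beside these differences. Of 6 fibroblast markers 2 passed as lower in litter B (3.31% of all genes). They were Pdgfra (log2 change -0.73) and Pdgfrb (-0.71), with adjusted p of 0.0167 and 0.0164 by limma. The sum of the list ranged from 108.7 to 196.0 normalized TPM in litter A and from 65.6 to 123.3 in litter B. Dpt and Lum of this list also belong to the fibril organisers. Of 6 endothelial markers 5 passed as lower in litter B (3.31% of all genes). Among them were the cadherin gene Cdh5 (-1.12, adjusted p = 0.00497) and Pecam1 (-1.03, adjusted p = 0.0152). The sum of all 6 ran from 40.5 to 76.1 in litter A and from 18.4 to 27.9 in litter B, without overlap. The 6 smooth muscle markers did not pass, and their sum overlapped widely, at 3820 to 6923 in litter A and 3226 to 7887 in litter B. Of 6 epithelial markers 1 passed as lower in litter B (3.31% of all genes), Cdh1 (-0.22), and the sum of all 6 was 3352 to 4378 and 3788 to 4774.

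Other cell types differed between single mice more than between litters. Of 5 tested fat cell markers 0 passed, with a median log2 change of -1.67 and sums of 7.78 to 517.3 in litter A and 2.85 to 25.6 in litter B. None of 4 enteric glia, 1 mesothelial, 3 skeletal muscle and 5 B cell markers tested passed either. The summed ranges in litters A and B were 8.93 to 19.0 and 7.11 to 18.2 for glia, 0.587 to 7.56 and 0.317 to 1.78 for mesothelium, 28.1 to 44.9 and 15.3 to 54.6 for skeletal muscle, and 1.43 to 310.7 and 4.56 to 122.8 for B cells. Of the skeletal muscle list, the myosin gene Myh4 was listed at 0 in all mice and Myh1 at no more than 0.563. The others were present in every mouse, with Ckm at 7.82 to 44.6, Mylpf at 3.48 to 12.7 and Acta1 at 3.25 to 13.6. The part of the 2 fibroblast and 5 endothelial markers that were lower in litter B in the collagen difference was not tested. Between genotypes 0 markers of any list passed.

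**Figure D5:**
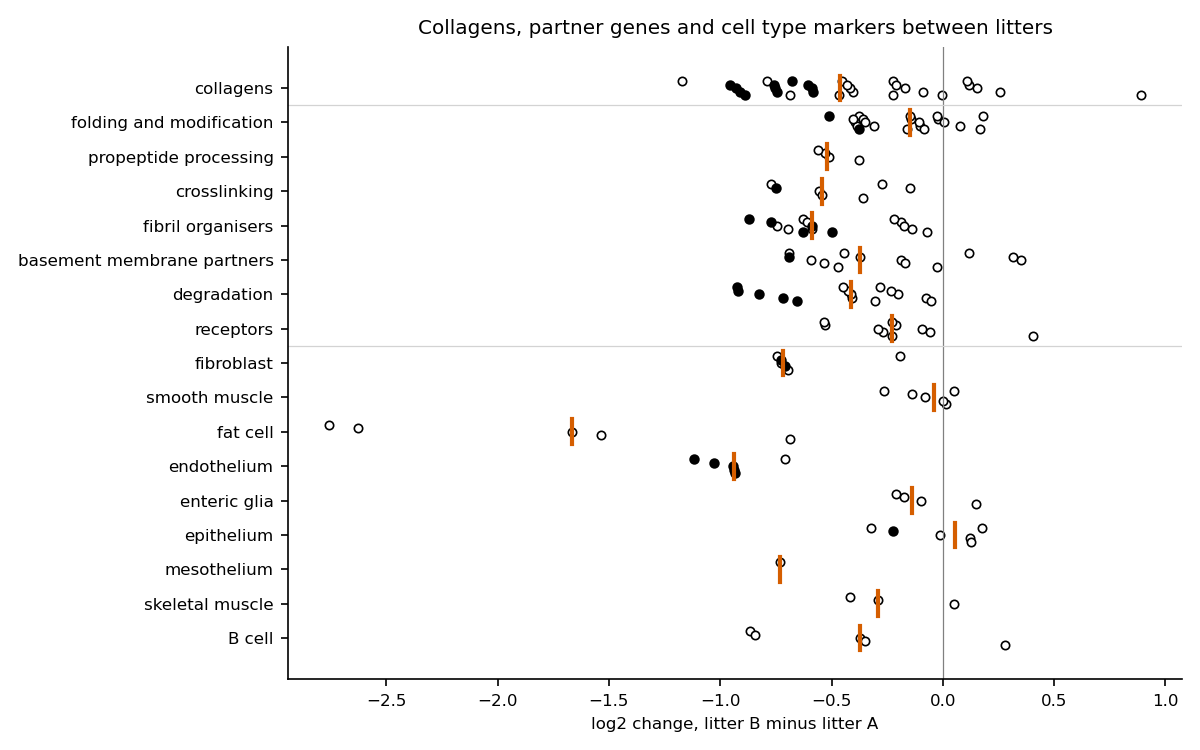
Log2 change of litter B minus litter A (x axis) for each tested gene of the collagens, of 7 lists of partner genes and of 9 lists of cell type markers (y axis), with filled points for an adjusted p under 0.05 and an orange bar at the median of each list. The medians lie at -0.46 for collagens, -0.59 for fibril organisers, -0.72 for fibroblast markers and -0.94 for endothelial markers, at -0.04 for smooth muscle markers, and at -1.67 for fat cell markers, of which none passed.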

How the data were processed

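RNA of distal colon from 12 mice was sequenced. Per the methods of the study, the authors pseudoaligned reads with kallisto to the mouse transcriptome. Per the labels, mm10 and sleuth were also used. The deposited values are a signal per transcript, taken from the study's methods and their totals to be TPM that was scaled once more between mice. TPM itself was assumed when the tests were planned. The remaining numeric columns hold the authors' own test statistics and were not used. After 781 repeated entries had been dropped, transcripts were summed per gene symbol, and tests on genes whose mean reached 0.5 used log2(value + 0.5), a scale that understates changes of low genes. limma 3.58.1 in R 4.3.3 (two-sided, trended prior, Benjamini-Hochberg adjustment over all genes, threshold 0.05) compared genotypes without a covariate, litters with genotype as a covariate, and their interaction. Spry2 and Col24a1 had exact permutation tests (SciPy 1.17.1). The fits were tested on simulated data. Groups, litters and replicate numbers came from the labels, and nothing was pooled. Each mouse is 1 sample, read depth is unknown from these values, and precision is limited by 6 mice per group.

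Collagens past the threshold, the 3 highest of each class and the 5 with the smallest p between genotypes and between litters were to be named. From each list of partner genes, the 2 highest and the 2 with the smallest p in either comparison were to be named. A gene that this rule would name is not reported here. The members and lists were chosen with earlier results of these data known. Alternatives were other pseudocounts, filters, scalings, covariates, subsets of mice and sets of transcripts, a prior without trend, and leaving out each mouse. Weighting transcripts by length was chosen after seeing the data. Positions and exons came from GENCODE M21 (GRCm38), promoters from RefSeq (GRCm38.p6).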

Additional observations from a re-analysis of the deposited data

Results flagged for a closer look

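Within a genotype, 5 of 60 groups of 6 values of the collagens tested held 1 mouse far from the others by Dixon's criterion, and chance gives about 1 in 20. Col20a1 was 1.86 normalized TPM in Spry2IEKO replicate 8, against 0.872 to 1.19 in the other Spry2IEKO mice. Col26a1 was 6.40 in Spry2IEKO replicate 12, against 0.216 to 2.43. In the same mouse Col4a6, of smooth muscle basement membranes, was 1.34, against 2.35 to 2.84. Col28a1, a collagen known from nerves, was 3.83 in Spry2FF replicate 9, against 1.55 to 2.21 in the other Spry2FF mice. Col7a1 was 0.517 in Spry2FF replicate 7, against 1.33 to 1.61. None of these genes passed the test in any comparison.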

How the results depend on the processing

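No collagen was called between genotypes under any alternative, and the collagens called between litters were all lower in litter B wherever any was called. No paired analysis was possible because the genotypes share no replicate numbers. Litter as a covariate was fitted in its place. Collagens called between litters numbered 4 to 14 with 1 mouse left out, and 0 among females alone, without both mice with the most fat transcripts, in Spry2FF mice alone and in Spry2IEKO mice alone. These subsets hold fewer mice. Over all genes, calls between litters numbered 422 without a filter, 1456 with equal totals, 1100 with protein-coding transcripts, 1254 with length-weighted transcripts, 1 among females, 18 without the fat-rich mice, 2 in Spry2FF, 1 in Spry2IEKO and 178 to 957 with 1 mouse left out. Calls between genotypes numbered 1 without a filter, 2 after quantile normalization, 2 with protein-coding transcripts, 1 with sex as a covariate, 2 among females, 0 without the fat-rich mice, 1 within litter A, 1 within litter B, 3 without trend and 1 to 11 with 1 mouse left out. Between litters, the log2 change reversed with protein-coding transcripts for Col27a1 (-0.10) and Col16a1 (0.22). Between genotypes it reversed for Col11a1 within litter A (0.10), Col15a1 without the fat-rich mice (-0.22), Loxl3 with protein-coding (-0.088) and length-weighted transcripts (-0.050), and Emilin1 with protein-coding transcripts (-0.21). The cause was not tested. Scaling to equal totals moved the median of all genes between litters from -0.05 to -0.12. For single genes named, 487 of the values between litters kept direction and side of the threshold under the other alternatives, 95 fell short of it, 30 newly passed it and 2 reversed.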
